A study of Mus musculus with 12 samples.

Results

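The genes described here are 8 regulators of cell survival and death, grouped for their links to tumour necrosis factor (TNF) receptors and the transcription factor NF-kB: Birc2, Birc3, Traf1, Traf2, Cflar, Bcl2l1, Bcl2l11 and Mcl1. They were taken as a list of gene symbols from the 23329 genes listed for each library, and were chosen with earlier results of these data known. All 8 were listed, and all 8 were among the 13038 genes that passed the filter on low counts, Traf1 through its LPS libraries only.

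NF-kB is the transcription factor that Toll-like receptor 4 activates when it senses lipopolysaccharide (LPS), a component of the outer membrane of Gram-negative bacteria. A number of its target genes keep cells alive while they signal, since the same receptors that activate NF-kB can also start caspase-driven death. Birc2 and Birc3 encode cIAP1 and cIAP2, ubiquitin ligases that are held by the adaptor Traf2 at the TNF receptor. Traf1 encodes a partner of Traf2 without a RING domain. Cflar encodes c-FLIP, which blocks caspase-8. Bcl2l1 (BCL-XL) and Mcl1 protect the outer mitochondrial membrane, and Bcl2l11 encodes BIM, a BH3-only protein that binds and opposes both.

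The data were mRNAseq libraries of primary stromal cells, labelled as intestinal myofibroblasts, grown from the small intestine of mice on the C57BL6/J background. Cultures came from adult mice or from embryos of stage E14.5, the latter from pooled embryos, and were used at passage 2 to 3. Each stage was sampled with LPS from E. coli, given at 10 µg/µl for 6 h, or with the vehicle PBS alone, and each of these 4 groups had 3 libraries. All groups were grown to confluence in medium that also held the ROCK inhibitor Y27632 and β-mercaptoethanol. The cells were plated unsorted, so that the cultures could hold any cell that attaches, and the ages of the adult mice are not given in the sources used here.

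Libraries held between 18850224 and 32672370 gene counts. The summed level of the 8 stromal markers was between 10840 and 26510 CPM (gene counts scaled by library size) in every library, and that of the 6 myofibroblast and smooth muscle markers between 13000 and 29850. These markers do not separate the myofibroblasts of the label from smooth muscle cells. RNA of other cells was also present. The 14 macrophage markers summed to between 191.6 and 2679 CPM in embryonic and between 16.95 and 209.9 CPM in adult libraries, with none of the 14 at 0 in a whole group. Endothelial markers reached 1793 CPM in adult and 34.7 CPM in embryonic libraries. Mesothelial markers reached 1039 CPM in adult and 444.9 CPM in embryonic libraries. Embryonic replicate 3 stood apart, with 2679 CPM of macrophage markers with PBS and 2213 CPM with LPS. So did adult replicate 2, with 1793 CPM of endothelial markers with PBS and 1723 CPM with LPS. The other adult replicates held between 14.07 and 382.3 CPM of endothelial markers. In bulk RNA, more cells of a type and more RNA per cell cannot be told apart. By flow cytometry the paper counted a larger share of leukocytes with the surface proteins CD45 and CD11b in its embryonic than its adult cultures.

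LPS raised Birc3, Birc2 and Traf1 in the embryonic stroma and Birc3 and Birc2 in the adult stroma, whereas Mcl1 and Bcl2l1, the most abundant of the 8 per kilobase, passed no test. In the embryonic comparison 3 of 8 genes were called higher at an adjusted p under 0.05, beside 2.67% of all tested genes (edgeR's quasi-likelihood test, p-values adjusted after Benjamini-Hochberg, n = 3). In the adult comparison 2 of 8 were called higher, beside 0.598% of all tested genes. With the replicate number, taken within its stage, fitted as a block, these counts became 6 of 8 beside 9.43% in the embryonic and 4 of 8 beside 4.69% in the adult stroma. The genes added under the block were Cflar, Traf2 and Bcl2l11 in the embryonic and Traf1 and Bcl2l11 in the adult comparison. With each stage fitted alone and no block, none of the embryonic calls held (adjusted p = 0.0861 for Birc3, 0.0994 for Traf1 and 0.260 for Birc2), while Birc2, Birc3 and also Cflar (adjusted p = 0.0232) were called in the adult stroma; of all tested genes 0.0317% and 1.76% were called higher in these fits. All 8 fitted log2 fold changes were above 0 in both stages. The median over the 8 genes was 1.30 on the log2 scale in the embryonic and 1.03 in the adult comparison, beside -0.00027 and -0.0075 over all tested genes.

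**Figure D1:**
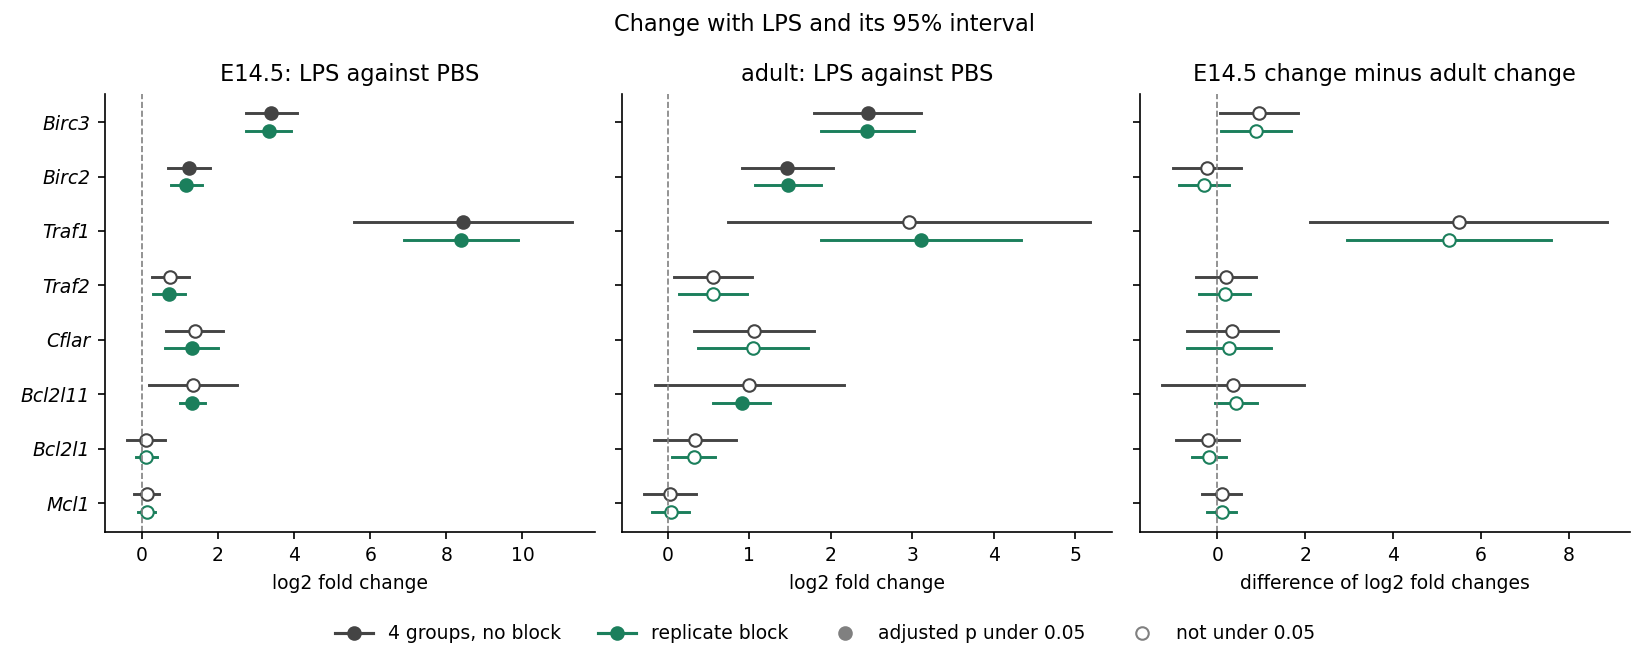
Log2 fold change with LPS in embryonic (left) and adult (middle) stroma, and the embryonic change minus the adult change (right), with 95% intervals, for each of the 8 genes. Grey marks the fit of the 4 groups without a block and green the fit with the replicate number as a block; filled points have an adjusted p under 0.05, and each panel has its own horizontal scale. Traf1 and Birc3 lie farthest to the right in both stages, and no point in the right panel is filled.

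Birc3, which encodes cIAP2, was called in both stages. Its level with PBS was 6.93, 10.3 and 7.71 CPM in embryonic replicates 1, 2 and 3, and with LPS 65.4, 60.8 and 135 CPM. In adult replicates 1, 2 and 3 it was 9.94, 9.74 and 12.03 CPM with PBS and 62.4, 48.7 and 61.4 CPM with LPS. Every LPS library therefore lay above every PBS library of either stage, and embryonic replicate 3 with LPS stood highest. The mean rose from 8.32 ± 1.78 to 87.1 ± 41.6 CPM in the embryonic (SD, n = 3) and from 10.6 ± 1.26 to 57.5 ± 7.64 CPM in the adult stroma. On the log2 scale the embryonic change was 3.41 (SE 0.31, adjusted p = 0.000916) and the adult change 2.45 (SE 0.30, adjusted p = 0.00683) (edgeR quasi-likelihood test, Benjamini-Hochberg). The embryonic call held in each of the 12 fits that left out 1 library. The adult call was lost without any 1 of the 3 adult PBS libraries (adjusted p between 0.0535 and 0.0647), but held in 12 of 12 such fits with the block.

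Birc2, its neighbour and closest paralogue, rose less. Embryonic replicates 1, 2 and 3 had 16.02, 16.6 and 18.3 CPM with PBS and 32.6, 26.8 and 58.8 CPM with LPS. Adult replicates had 14.54, 20.9 and 19.3 CPM with PBS and 49.1, 53.8 and 47.2 CPM with LPS. The groups did not overlap in either stage, and the 3 adult LPS libraries lay closer together than the 3 embryonic ones. The log2 fold change was 1.24 (SE 0.25, adjusted p = 0.0273) in the embryonic and 1.46 (SE 0.25, adjusted p = 0.0323) in the adult comparison (edgeR quasi-likelihood test, Benjamini-Hochberg). The embryonic call was lost without any 1 of the embryonic PBS libraries, adult PBS replicate 3 or adult LPS replicate 3 (adjusted p between 0.0515 and 0.146). The adult call was lost without any 1 of the 6 adult libraries or embryonic PBS replicates 1 or 2 (adjusted p between 0.0510 and 0.179). With the block both calls held in all 12 fits that left out 1 library.

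Birc2 (chromosome 9, 7818226 to 7837131) and Birc3 (chromosome 9, 7847468 to 7873205) lie side by side on the minus strand of GRCm38.p6. Their start regions are shown because the genes are paralogues whose fitted changes differed in size. Each line runs from 250 bases before to 50 bases after the RefSeq start site in GRCm38.p6, on the minus strand: chr9:7873121-7873420 for Birc3 and chr9:7837008-7837307 for the second of 2 windows of Birc2. Capitals mark the cAMP response element TGACGTCA, which starts 35 bases before the start site of this Birc2 window. The other Birc2 window, not shown, lacked TGACGTCA, and the counts do not tell which start site was used.
Birc3: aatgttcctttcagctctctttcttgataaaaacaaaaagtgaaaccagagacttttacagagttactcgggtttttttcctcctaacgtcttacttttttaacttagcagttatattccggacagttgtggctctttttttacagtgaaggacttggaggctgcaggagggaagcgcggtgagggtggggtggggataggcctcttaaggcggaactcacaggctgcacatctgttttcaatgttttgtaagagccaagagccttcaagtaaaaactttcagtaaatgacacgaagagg
Birc2: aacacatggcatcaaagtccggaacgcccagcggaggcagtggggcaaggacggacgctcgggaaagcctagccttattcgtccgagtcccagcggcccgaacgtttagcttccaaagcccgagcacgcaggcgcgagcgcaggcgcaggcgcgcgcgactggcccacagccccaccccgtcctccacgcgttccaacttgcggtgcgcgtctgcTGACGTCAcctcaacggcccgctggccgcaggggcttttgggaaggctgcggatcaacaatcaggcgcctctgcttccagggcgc
The GC content was 43% in the Birc3 window and 67% in the Birc2 window. TGACGTCA was found in 1.79% of all 32851 RefSeq windows of this length, both strands searched. Neither window held the kB consensus, also with 1 mismatch allowed. Exact kB matches were present in 4.51% of all windows, and matches with at most 1 mismatch in 45.5%. A missing match says only that these letters are not in these 300 bases.

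**Figure D2:**
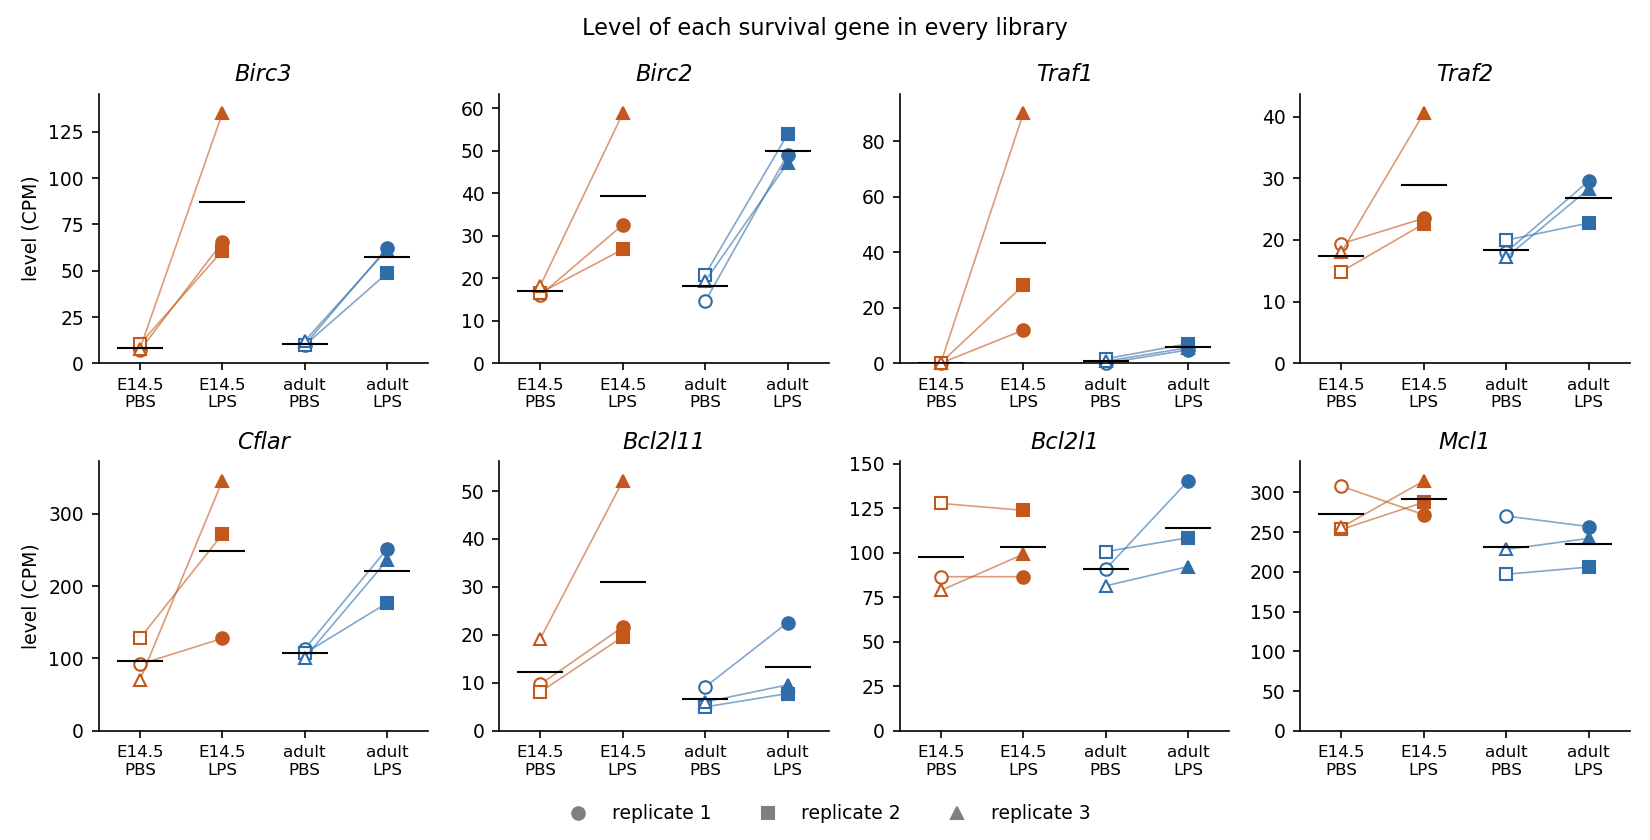
Level of each of the 8 genes in CPM (linear axes from 0) in the 12 libraries, with open symbols for PBS, filled symbols for LPS, orange for E14.5 and blue for adult. Lines join libraries of the same replicate number and black bars are means of 3. Birc3, Birc2, Traf1 and Traf2 are higher in every LPS library than in every PBS library of the same stage, whereas Mcl1 and Bcl2l1 overlap.

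Traf1 had almost no counts without LPS. With PBS it had 1, 6 and 5 counts in embryonic replicates 1, 2 and 3, and with LPS 340, 850 and 2307 counts. These are 0.030, 0.183 and 0.151 CPM against 11.9, 28.01 and 90.0 CPM. The embryonic LPS libraries had a mean of 43.3 ± 41.2 CPM (SD, n = 3). In adult replicates 1, 2 and 3 the counts were 0, 33 and 21 with PBS and 148, 228 and 130 with LPS, or 0, 1.59 and 0.724 CPM against 4.81, 7.03 and 5.61 CPM. All LPS libraries lay above all PBS libraries, and the lowest embryonic LPS library lay above the highest adult one.

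Pair by pair, Traf1 was 153-fold higher with LPS in embryonic replicate 2 (95% counting interval 70.1 to 419) and 595-fold higher in replicate 3 (255 to 1834). In embryonic replicate 1 the ratio was 394, with an interval of 70.2 to 15607 that rests on the single PBS count. It was 4.42-fold higher in adult replicate 2 (3.06 to 6.57) and 7.75-fold higher in replicate 3 (4.86 to 12.9), and at least 43.5-fold higher in replicate 1, where the PBS library had no count and a floor of 3 counts was used. These intervals cover counting error only. The fitted log2 change was 8.45 (SE 1.29, adjusted p = 0.00821) in the embryonic comparison by edgeR's quasi-likelihood test, and this value depends on the prior count. Traf1 passed the filter on low counts through its LPS libraries only, so that its LPS tests are not independent of that filter. Without embryonic PBS replicate 1 the adjusted p was 0.0569, and without both libraries of embryonic replicate 3 it was 0.0522. The adult change of 2.96 (SE 1.00, adjusted p = 0.472) passed the test only with the block (3.11, SE 0.53, adjusted p = 0.0138, quasi-likelihood test), and not there without adult LPS or PBS replicate 3 (adjusted p = 0.112 and 0.113). Over the alternatives that kept all libraries its adult adjusted p lay between 0.00721 and 0.556, and over those that left libraries out between 0.00691 and 1.

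The start region of Traf1 (chr2:34961723-34962022, minus strand, GRCm38.p6, RefSeq) is shown as that of the gene with the largest change. It held no kB match, with or without 1 mismatch, and no TGANTCA (AP-1) or TGACGTCA, so that no base is in capitals.
Traf1: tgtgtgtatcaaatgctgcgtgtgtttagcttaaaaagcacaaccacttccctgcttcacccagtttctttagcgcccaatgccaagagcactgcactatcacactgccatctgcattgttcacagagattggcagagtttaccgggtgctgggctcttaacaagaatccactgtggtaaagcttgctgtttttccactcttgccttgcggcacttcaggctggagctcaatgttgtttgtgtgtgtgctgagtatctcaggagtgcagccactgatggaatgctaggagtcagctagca
TGANTCA was found in none of the 12 windows of the 8 genes and in 7.81% of all windows.

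Traf2, the adaptor to which Traf1 and the cIAPs bind, moved little. Embryonic replicates 1, 2 and 3 had 19.4, 14.9 and 18.0 CPM with PBS and 23.5, 22.6 and 40.5 CPM with LPS. Adult replicates had 18.0, 19.96 and 17.2 CPM with PBS and 29.5, 22.7 and 28.3 CPM with LPS. The groups did not overlap in either stage, but the gap was small, at 19.4 against 22.6 CPM in the embryonic and 19.96 against 22.7 CPM in the adult stroma. The log2 change of 0.75 (SE 0.22, adjusted p = 0.126) in the embryonic comparison passed the quasi-likelihood test only with the block (0.71, SE 0.18, adjusted p = 0.0378), and then in 4 of 12 fits that left out 1 library; it was lost without any library of adult replicate 1 or 3 or of embryonic replicate 2 or 3 (adjusted p between 0.0687 and 0.149). The adult change was 0.56 (SE 0.22, adjusted p = 0.655). With the block it was called only without the LPS or the PBS library of embryonic replicate 3 (adjusted p = 0.0399 and 0.0442). Traf2 overlaps Gm13433, a gene on the other strand, and the counts used were those of the strand of Traf2. LPS and PBS ranges did not overlap for 5 of 8 genes in the embryonic stroma (Birc2, Birc3, Traf1, Traf2 and Bcl2l11), where 6.94% of all tested genes were so placed, and for 5 of 8 in the adult stroma (Birc2, Birc3, Cflar, Traf1 and Traf2), where 8.74% were.

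Cflar, the caspase-8 inhibitor, had 91.9, 127.8 and 70.0 CPM with PBS in embryonic replicates 1, 2 and 3, and 127.7, 271.6 and 345.5 CPM with LPS. In adult replicates it had 113, 107.1 and 100.9 CPM with PBS and 251.6, 176.7 and 235.8 CPM with LPS. The adult groups did not overlap. The embryonic ones met, since replicate 1 with LPS matched replicate 2 with PBS, while all 3 embryonic pairs were higher with LPS, by 1.39, 2.13 and 4.94 fold. The embryonic log2 change of 1.39 (SE 0.34) had an adjusted p of 0.0625 by the quasi-likelihood test, and 1.31 (SE 0.30, adjusted p = 0.0265) with the block. The unblocked test called it without embryonic LPS replicate 1 (adjusted p = 0.00629), and the blocked test lost it without any library of adult replicate 1 or 3 or of embryonic replicate 2 (adjusted p between 0.0523 and 0.0585). In the adult comparison it was 1.06 (SE 0.33, adjusted p = 0.376), and 1.04 (adjusted p = 0.0893) with the block, where leaving out LPS replicate 1 or either library of replicate 3 of the embryonic stroma brought it to between 0.00271 and 0.0486.

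Of the 3 BCL2 family genes among the 8, the pro-apoptotic Bcl2l11 was called with the block, while the protective Mcl1 and Bcl2l1 were called in neither fit. Bcl2l11 had 9.69, 8.10 and 19.2 CPM with PBS in embryonic replicates 1, 2 and 3, and 21.7, 19.6 and 52.1 CPM with LPS. In adult replicates it had 9.13, 4.97 and 6.00 CPM with PBS and 22.6, 7.77 and 9.58 CPM with LPS. Replicate 3 was highest among embryonic and replicate 1 among adult libraries under both treatments, and the highest adult PBS library lay between the 2 lower adult LPS libraries. Within pairs the level was higher with LPS by 2.23, 2.42 and 2.71 fold in the embryonic and 2.47, 1.56 and 1.60 fold in the adult libraries, with the widest adult gap in replicate 1. Without the block neither stage was called (1.36, SE 0.52, adjusted p = 0.315, and 1.00, SE 0.52, adjusted p = 1). With the block both were, at 1.32 (SE 0.14, adjusted p = 0.000741) and 0.91 (SE 0.15, adjusted p = 0.0123) by the quasi-likelihood test. The embryonic call then held in 12 of 12 fits that left out 1 library, and the adult call in 8 of 12, the exceptions being the libraries of adult replicates 1 and 3 (adjusted p between 0.0585 and 0.0784).

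Mcl1 was the most abundant of the 8 genes per kilobase of exon in all 4 groups, with means of 67.8 to 85.2 CPM per kilobase, followed by Bcl2l1 with 19.8 to 24.8. With PBS and LPS in turn, Mcl1 had 307.7 and 271.8 CPM in embryonic replicate 1, 253.2 and 287.4 in replicate 2 and 255.8 and 314.2 in replicate 3. The adult pairs were 270.1 and 256.9, 196.9 and 205.9, and 228.1 and 242.0 CPM. Replicate 1 was lower and replicates 2 and 3 were higher with LPS in both stages. The log2 change was 0.12 in the embryonic (95% interval -0.19 to 0.44) and 0.03 in the adult comparison (-0.29 to 0.35), with adjusted p-values of 0.972 and 1 by the quasi-likelihood test. With the block the intervals were -0.10 to 0.36 and -0.19 to 0.26, which leave out a 2-fold change in either direction.

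Bcl2l1 had 86.6, 127.8 and 78.9 CPM with PBS and 86.6, 123.9 and 99.2 CPM with LPS in embryonic replicates 1, 2 and 3. Adult replicates had 90.8, 100.7 and 81.5 CPM with PBS and 140.4, 108.5 and 92.3 CPM with LPS. Adult replicate 1 had the widest gap between treatments, and the groups overlapped in both stages. The log2 change was 0.11 (95% interval -0.39 to 0.61) in the embryonic and 0.33 (-0.17 to 0.83) in the adult comparison (adjusted p = 0.999 and 1, quasi-likelihood test). With the block the adult value was 0.31 (0.05 to 0.58, adjusted p = 0.195). One of the 3 RefSeq start regions of Bcl2l1 (chr2:152830668-152830967, minus strand, GRCm38.p6) is shown because it was the only 1 of the 12 windows of the 8 genes with an exact kB match, which starts 242 bases before the start site. Capitals mark this match and 4 further ones with 1 mismatch.
Bcl2l1: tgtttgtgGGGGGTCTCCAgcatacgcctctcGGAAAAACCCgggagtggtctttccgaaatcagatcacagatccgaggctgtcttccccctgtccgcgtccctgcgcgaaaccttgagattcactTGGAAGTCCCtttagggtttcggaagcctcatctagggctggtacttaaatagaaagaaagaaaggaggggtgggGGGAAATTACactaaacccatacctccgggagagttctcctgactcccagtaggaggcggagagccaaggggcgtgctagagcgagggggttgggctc
The counts do not tell which start site was used.

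The balance within each pair of related genes was compared per kilobase of exon. The ratio of Birc3 to Birc2 was 0.396, 0.570 and 0.386 in embryonic PBS and 1.84, 2.07 and 2.10 in embryonic LPS libraries, and went from 0.625, 0.427 and 0.570 to 1.16, 0.826 and 1.19 in the adult ones. Birc3 was thus the lesser of the pair in all 6 PBS libraries and the greater in all 3 embryonic LPS libraries, with values around 1 in the adult. The ratio of Traf1 to Traf2 was at most 0.0461 with PBS. With LPS it was 0.294, 0.717 and 1.28 in the embryonic and 0.0942, 0.179 and 0.115 in the adult libraries. The ratio of Bcl2l11 to the sum of Mcl1 and Bcl2l1 was higher with LPS in all 6 pairs and was at most 0.0571 in any library. It went from 0.0111, 0.0099 and 0.0260 to 0.0274, 0.0220 and 0.0571 in the embryonic, and from 0.0115, 0.0078 and 0.0088 to 0.0266, 0.0115 and 0.0131 in the adult libraries. These ratios are of RNA and carry no test.

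**Figure D3:**
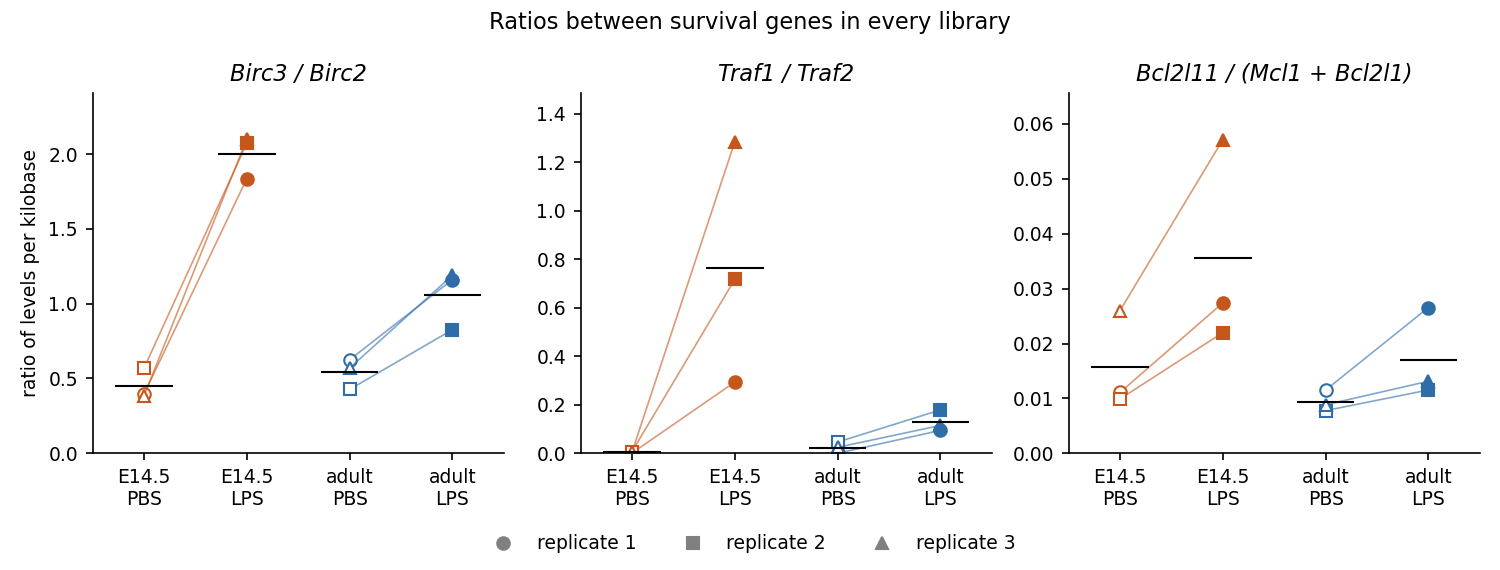
Ratio of levels per kilobase of exon in each of the 12 libraries for Birc3 to Birc2, Traf1 to Traf2, and Bcl2l11 to the sum of Mcl1 and Bcl2l1, on linear axes from 0. Open symbols are PBS, filled symbols LPS, lines join libraries of the same replicate number and bars are means of 3. The embryonic LPS libraries reach ratios of Birc3 to Birc2 near 2, and adult ones values between 0.826 and 1.19.

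The response was then compared between the stages. No gene of the 8 passed the test of the difference between embryonic and adult response, with or without the block, or by DESeq2. In both edgeR fits 2 of 8, Traf1 and Birc3, had an unadjusted p under 0.05. Among the 13038 tested genes Birc3 ranked 230 by this p without the block and 876 with it. At least that many genes therefore had a p under 0.05 in each fit. Without the block no gene of any kind was called (0%), and with the block 0.844% of all tested genes were. The Traf1 response was larger in the embryonic stroma by 5.28 on the log2 scale (SE 1.00, 95% interval 2.96 to 7.59, adjusted p = 0.0752, quasi-likelihood test with the block). Without adult LPS or PBS replicate 1, whose PBS library had no Traf1 count, the adjusted p was 0.0146 and 0.0134. Over the alternatives that kept all libraries, it lay between 0.0678 and 1. For Birc3 the difference was 0.88 (SE 0.34, interval 0.09 to 1.67, adjusted p = 0.495), and for Birc2 -0.31 (interval -0.88 to 0.26).

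Between the stages themselves, 0 of 8 genes were called with PBS by edgeR's quasi-likelihood test, beside 4.08% of all tested genes, and 0 of 8 had an unadjusted p under 0.05 or were called by DESeq2. With LPS 0 of 8 were called, beside 5.31%, and DESeq2 called Traf1 (adjusted p = 0.0282). In the edgeR test with LPS 3 of 8 had an unadjusted p under 0.05 (Traf1, Bcl2l11 and Mcl1). Mcl1 ranked 2697 by this p among the 13038 tested genes, so at least 2697 of them had a p under 0.05. Traf1 was 7.45-fold higher in the mean of the embryonic LPS libraries than in that of the adult ones (log2 difference 2.91, SE 0.94, adjusted p = 0.101, quasi-likelihood test). Without embryonic LPS replicate 3 the log2 difference was 1.79 (adjusted p = 0.355). It and Mcl1 were the 2 genes whose embryonic LPS libraries all lay above the adult ones, as did those of 12.4% of tested genes. Without both libraries of embryonic replicate 3, Birc2 was called lower in the embryonic than in the adult LPS libraries (-0.75, adjusted p = 0.0493).

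In the LPS libraries macrophage marker RNA had the same order as several of these values. In embryonic replicates 1, 2 and 3 the 14 markers summed to 191.6, 1020 and 2213 CPM with LPS. This is the same order as the LPS levels of Traf1, Cflar and Mcl1, of which Mcl1 was not called with LPS. Replicate 3 also had the highest embryonic LPS level of Birc3, Birc2, Traf2 and Bcl2l11. With PBS the markers summed to 220.6, 436.1 and 2679 CPM in embryonic replicates 1, 2 and 3. There replicate 3 had the highest level of Birc2 and Bcl2l11 only, and the lowest of Cflar and Bcl2l1 (70.0 and 78.9 CPM). In the adult stroma replicate 1 had the most macrophage marker RNA, with 209.9 CPM against 16.95 and 50.99 CPM with LPS, and it had the highest level of the adult LPS libraries for 6 of 8 genes (Birc3, Cflar, Traf2, Bcl2l11, Bcl2l1 and Mcl1) but the lowest for Traf1. Mesothelial markers had the same adult order as the macrophage markers, at 1039, 270.2 and 436.4 CPM with LPS in replicates 1, 2 and 3. With PBS the mesothelial markers summed to 979.6, 324.3 and 468 CPM. Endothelial markers summed to 14.07, 1723 and 351.5 CPM with LPS in adult replicates 1, 2 and 3, and to 19.99, 1793 and 382.3 CPM with PBS. Of the 8 genes, Traf1 alone had this order under both treatments. None of the 14 markers was called in either stage without the block, nor had an unadjusted p under 0.05. With the block 4 of 14 rose in the embryonic stroma (Ptprc, Fcgr1, Adgre1 and Spi1), beside 9.43% of all tested genes called higher. In the adult stroma 0 of 14 were called, beside 4.69% called higher, and 2 had an unadjusted p under 0.05.

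Embryonic replicate 1 and adult replicate 1 had similar sums (191.6 to 220.6 and 190.7 to 209.9 CPM). Between the LPS and PBS libraries of these numbers Birc3 was 9.43-fold higher with LPS in the embryonic and 6.27-fold in the adult, Birc2 2.03-fold and 3.38-fold, Cflar 1.39-fold and 2.23-fold, Traf2 1.21-fold and 1.64-fold, and Bcl2l11 2.23-fold and 2.47-fold. Bcl2l1 had ratios of 1.00 and 1.55 and Mcl1 of 0.883 and 0.951. For Traf1 the ratio was 394 in the embryonic, resting on 1 PBS count, and at least 43.5 in the adult. Without both libraries of embryonic replicate 3, Birc3 was still called (2.88 on the log2 scale, adjusted p = 0.000395, quasi-likelihood test), while Birc2 (0.87, adjusted p = 0.0684) and Traf1 (7.50, adjusted p = 0.0522) were not. With the block and without LPS replicate 3, embryonic Bcl2l11 (1.23, adjusted p = 0.00374) and Cflar (0.79, adjusted p = 0.0254) were called and Traf2 (0.45, adjusted p = 0.149) was not. The part of macrophage, mesothelial or endothelial RNA in these differences was not tested.

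**Figure D4:**
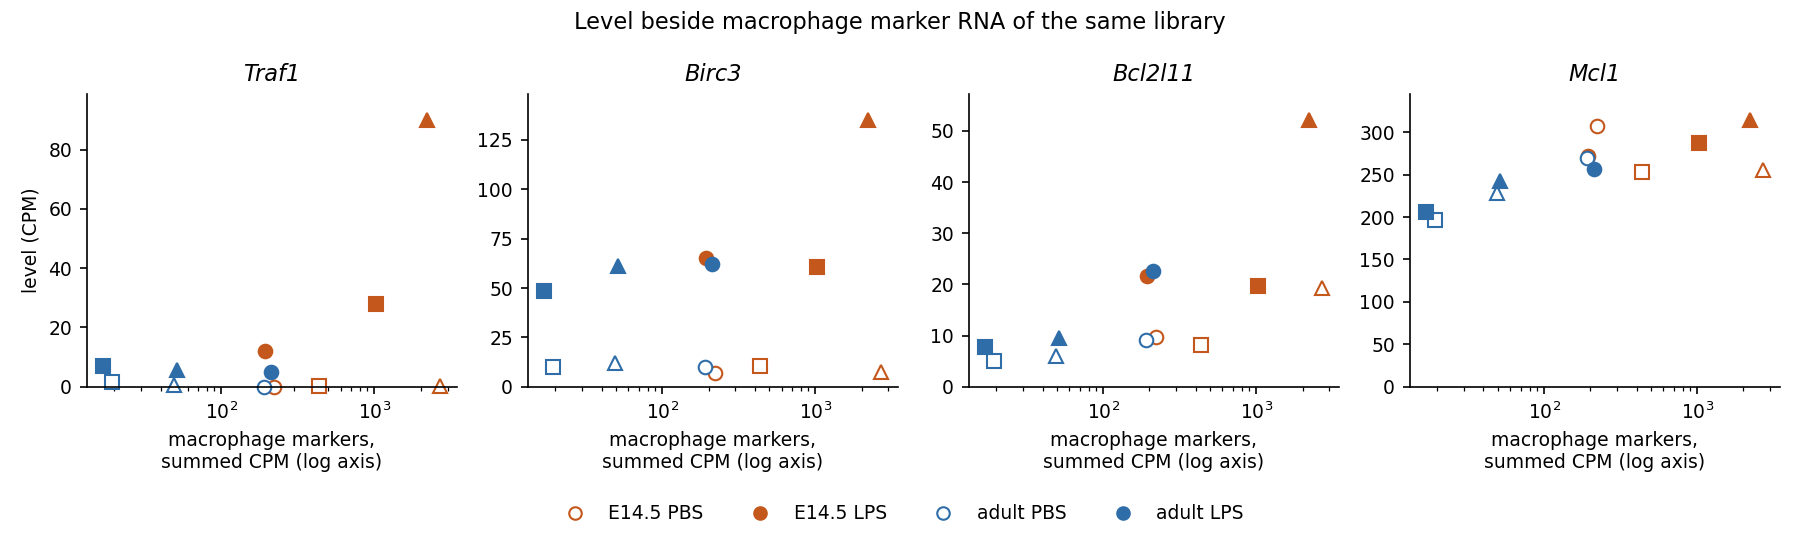
Level of Traf1, Birc3, Bcl2l11 and Mcl1 in CPM (linear axes from 0) against the summed level of 14 macrophage markers in the same library (log axis). Orange is E14.5 and blue adult, open symbols are PBS and filled symbols LPS; circles, squares and triangles are replicates 1, 2 and 3. The embryonic LPS library with 2213 CPM of markers has the highest level in all 4 panels, while Birc3 is at 48.7 CPM or more in every LPS library down to 16.95 CPM of markers.

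The wider pathway was read from lists of related genes. Of all tested genes, 2.67% were called higher in the embryonic and 0.598% in the adult stroma without the block. With the block these shares were 9.43% and 4.69%, and they stand beside the list counts below. Of the NF-kB response genes, 8 of 8 rose in the embryonic and 6 of 8 in the adult stroma without the block and 8 of 8 did in both with it. Nfkbia, the inhibitor of NF-kB, changed by 4.27 (SE 0.44, adjusted p = 0.00162) in the embryonic and 3.33 (SE 0.42, adjusted p = 0.00965) in the adult comparison on the log2 scale. Of 8 further survival targets of NF-kB, 3 were called higher in the embryonic stroma (Tnfaip3, Bcl3 and Sod2) and 0 in the adult, where 5 had an unadjusted p under 0.05. With the block 7 and 5 were called higher. Tnfaip3, the ubiquitin-editing enzyme A20, went from 65.4 ± 58.1 to 620.2 ± 259.8 CPM in the embryonic (SD, n = 3; adjusted p = 0.0171) and from 53.65 ± 3.998 to 451.1 ± 172.1 CPM in the adult stroma, where it passed only with the block (adjusted p = 0.0135, quasi-likelihood test). Ier3, an immediate early survival gene, was called only with the block, at 1.86 (SE 0.18, adjusted p = 0.00042) and 1.84 (SE 0.18, adjusted p = 0.000961).

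Among the other inhibitor of apoptosis genes, 5 of 8 were tested and 0 were called in either stage without the block, none with an unadjusted p under 0.05. With the block Xiap, a direct caspase inhibitor, rose by 0.40 (SE 0.09, adjusted p = 0.0242) and Birc5, a mitotic gene, fell by 0.86 (SE 0.22, adjusted p = 0.041) in the embryonic stroma, and 0 were called in the adult. Of 6 other TRAF genes, Traf3 and Tank rose in both stages without the block. Traf3, which joins the cIAPs in the breakdown of NIK, rose from 55.1 ± 2.33 to 90.1 ± 8.47 CPM in the embryonic (adjusted p = 0.00286) and from 57.2 ± 2.35 to 86.1 ± 4.29 CPM in the adult stroma (adjusted p = 0.0175). In the non-canonical NF-kB pathway, 4 of 9 genes rose in the embryonic (Nfkb2, Relb, Traf3 and Cd40) and 3 of 9 in the adult stroma (Nfkb2, Relb and Traf3) by the quasi-likelihood test. Map3k14, which encodes NIK, was not among those called.

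In the TNF receptor complex, 4 of 26 genes were called higher in the embryonic (Tnip1, Tnfaip3, Rnf31 and Mlkl) and 1 of 26, Tnip1, in the adult stroma, and 7 and 4 with the block. Tnip1, a ubiquitin-binding partner of A20, went from 45.0 ± 1.76 to 220.7 ± 48.9 CPM in the adult stroma (adjusted p = 0.00683). Tnfrsf1b, the second TNF receptor, was called only with the block, at 3.31 (SE 0.20, adjusted p = 2.59e-05) in the embryonic and 1.79 (SE 0.19, adjusted p = 0.00131) in the adult, and its response was called larger in the embryonic stroma (1.52, SE 0.26, adjusted p = 0.0498, quasi-likelihood test). Casp8 rose by 0.56 (SE 0.08, adjusted p = 0.00411) in the embryonic stroma with the block. Ripk1 and Fadd passed in neither stage or fit.

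Of the other pro-apoptotic BCL2 genes, 8 of 10 were tested and Bid alone was called without the block, in both stages. Bid, the BH3-only protein that caspase-8 cleaves, rose from 11.4 ± 3.48 to 35.9 ± 9.19 CPM in the embryonic (adjusted p = 0.00654) and from 12.91 ± 1.497 to 45.8 ± 4.58 CPM in the adult stroma (adjusted p = 0.0101, quasi-likelihood test). With the block Pmaip1 (NOXA) rose by 0.47 (SE 0.06, adjusted p = 0.00171) and Bmf fell by 1.49 (SE 0.36, adjusted p = 0.0344) in the embryonic stroma. Of the other protective BCL2 genes, 5 of 7 were tested. Bcl2 and Bcl2l2 passed no test, with embryonic values of -0.13 and -0.05 and adult values of -0.31 and -0.14. The other 3 were Bcl2a1a, Bcl2a1b and Bcl2a1d, near-identical copies between which reads are hard to divide, so that their separate values are uncertain. With the block all 3 were called higher in both stages, and without it Bcl2a1d alone, in the embryonic (4.66, SE 1.07, adjusted p = 0.0488, quasi-likelihood test). The 3 genes passed the filter on low counts through embryonic libraries only. Bcl2a1a and Bcl2a1d each had 1, 0 and 0 counts in adult PBS replicates 1, 2 and 3. Their adult LPS means were 0.27 and 0.341 CPM, so that their adult calls rest on almost no counts. The mean level of Bcl2a1b was 93.5 ± 94.7 CPM in embryonic LPS and 1.87 ± 2.16 CPM in adult LPS libraries. Of 10 p53 targets, Fas, a death receptor also driven by NF-kB, was the only 1 called without the block, in the embryonic (1.84, SE 0.25, adjusted p = 0.00493) and the adult comparison (1.36, SE 0.25, adjusted p = 0.0427). With the block 4 of 10 were called higher in the embryonic (Fas, Pmaip1, Mdm2 and Tnfrsf10b) and 2 of 10 in the adult stroma (Fas and Tnfrsf10b).

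**Figure D5:**
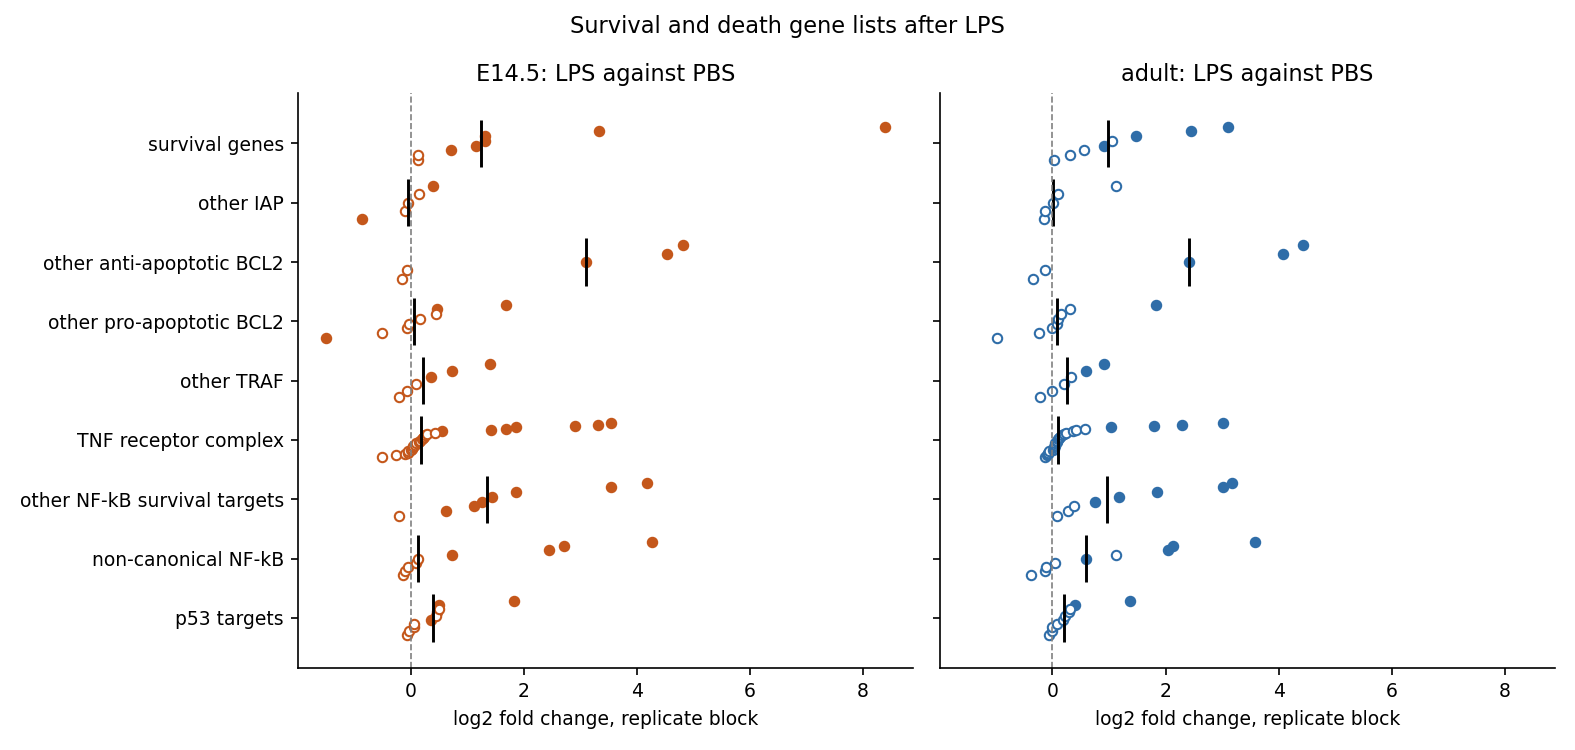
Log2 fold change with LPS, from the fit with the replicate number as a block, for each tested gene of the 8 survival genes and of 8 related lists, in embryonic (left) and adult (right) stroma. Filled points have an adjusted p under 0.05 and the black bar is the list's median. Medians of the 8 survival genes are 1.24 and 0.97, and those of the other inhibitor of apoptosis genes -0.04 and 0.01.

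Over the 12 libraries, the tested genes whose log2 levels ran closest to each of the 8 were found by Pearson correlation, as a description. For Birc2, Birc3, Cflar, Traf1 and Traf2 it rests largely on the shared division into LPS and PBS libraries. For Birc3 these were Ccl5 (r = 0.988) and Nfkbiz (r = 0.986), for Birc2 Tnip1 (0.969) and Lrrc8b (0.957), and for Cflar Ptpn2 (0.980) and Nfkbib (0.960). Traf1 ran closest to Tnfsf10 (0.971) and H2-Q4 (0.956), and Traf2 to Jak2 (0.975) and Gna13 (0.948). Bcl2l11 ran closest to Ctsc (0.945) and Bcl2a1a (0.943). The values for Mcl1 (Kazn 0.927 and Tcn2 0.916) and Bcl2l1 (Pfdn2 0.901 and Gpx4 0.877) were the lowest of the 8. Mean levels of Ctsc and Bcl2a1a differed with both stage and treatment. Those of Kazn and Tcn2 differed more between the stages than between LPS and PBS, and those of Pfdn2 and Gpx4 differed little between any groups.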

How the data were processed

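mRNAseq counts were analysed for 12 libraries, 3 in each of 4 groups of stage and treatment taken from the labels. Per the paper's methods the authors prepared polyA stranded libraries, sequenced single-end 75 bp reads, trimmed them with Trim Galore and mapped them to GRCm38.p6 with STAR, keeping uniquely mapped reads. The deposited values were raw counts per gene without normalization, and the column of the expected strand was used. Its 4 summary lines, which name no gene, were left out. The tests used edgeR 4.0.16 under R 4.3.3, with limma 3.58.1 beneath it and DESeq2 1.42.0 as an alternative: TMM normalization, the quasi-likelihood test and Benjamini-Hochberg adjustment over 13038 genes, each above 0.5 CPM throughout some group. Figures were made with matplotlib 3.10.9 (Python 3.11.15). Calls were made at an adjusted p under 0.05. Levels are TMM-scaled CPM, log2 levels had a prior count of 2, and levels per kilobase used merged exons of GENCODE M21. A floor of 3 counts stood for a count of 0; it was 0.0908 to 0.145 CPM. The 12 promoter windows came from RefSeq (GRCm38.p6) and matched 8 of 8 genes.

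The 8 genes and the related lists were chosen with earlier results of these data known. Genes named beyond the 8 were list members called in either LPS comparison, those whose uncalled value is given, and the 2 best correlated genes for each of the 8. Replicate numbers come from the labels, and same-numbered libraries of the 2 treatments deviated from their group means in the same way in all 6 pairs (correlations 0.610 to 0.849), so they were taken to pair the samples and were also fitted as a block. The sources used here do not say that they were split from the same culture. Tests were checked on simulated counts. The alternatives were other normalizations, filters, strands, tests and thresholds, each stage alone, and leaving out libraries; leaving out both libraries of a number was added after seeing the data. Adgre1, Spi1 and Otulin were matched through RefSeq synonyms.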

Additional observations from a re-analysis of the deposited data

Results flagged for a closer look

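A signal outside the main measurement was found on the strand opposite to Birc3, whose counts did not enter the comparisons. In CPM the lowest embryonic LPS library had 0.3158 and the lowest adult LPS library 0.2773, above the highest PBS library of the same stage (0.305 and 0.0482). The counts behind these values were few, at 9 to 18 in embryonic LPS, 7 to 21 in adult LPS, 1 to 10 in embryonic PBS and 1 in each adult PBS library. They were 0.541% of the counts of both strands of the gene in embryonic LPS and 0.746% in adult LPS libraries, against 1.44% and 0.364% with PBS. Over all genes, 1.14% to 1.98% of counts lay on the opposite strand.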

How the results depend on the processing

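Without the replicate block, the count of the 8 genes called was 3 in the embryonic and 2 in the adult comparison. It became 6 and 4 with the replicate block within a stage, where 9.43% and 4.69% of all tested genes were called higher. With each stage fitted alone (when 2 groups set the spread) it was 0 of 8 in the embryonic, beside 0.0317%, and 3 of 8 in the adult stroma, beside 1.76%. With each stage alone and the block it was 4 of 8 in the embryonic, beside 4.92%, and 6 of 8 in the adult stroma, beside 8.87%. DESeq2 called 5 of 8 in the embryonic stroma, beside 4.61%, and 1 of 8 between the stages with LPS, beside 13.1% in either direction. In the adult stroma 1 of 8 was called at an adjusted p under 0.01, beside 0.123%, and 1 when a log2 change of 2 or more was also asked for, beside 0.422%. Without the block, leaving out 1 library gave counts of 1 to 4 in the embryonic and 0 to 2 in the adult comparison. Leaving out both libraries of a number gave 1 to 3 and 0 to 2. With the block, leaving out 1 library gave 4 to 6 and 2 to 6. For the difference of responses counts were 0 without the block and 0 to 1 with it, and for the stages with LPS 0 to 1. The shares of all tested genes called in these fits are not given here. Among the 8 genes the block changed no other LPS call. All 38 changes of direction were in values without a call when libraries were left out (both libraries of a number were left out as a choice made after seeing the data). Their log2 ranges ran from -0.074 to 0.36 for Bcl2l1 in embryonic and from -0.071 to 0.16 for Mcl1 in adult stroma. For the difference of responses they ran from -0.24 to 0.69 for Cflar, from -0.13 to 0.42 for Traf2, from -0.40 to 0.032 for Bcl2l1, from -0.23 to 0.98 for Bcl2l11 and from -0.031 to 0.25 for Mcl1. Between the stages with PBS they ran from -0.24 to 0.0088 for Birc2, from -0.41 to 0.043 for Cflar, from -0.17 to 0.013 for Traf2 and from -0.15 to 0.24 for Bcl2l1. With LPS they ran from -0.15 to 0.50 for Cflar, from -0.22 to 0.25 for Traf2 and from -0.30 to 0.070 for Bcl2l1. The cause was not tested. All 64 group levels under another normalization or with both strands counted moved by less than 1 SD. With 3 libraries a group, changes within the spread of libraries could not be told from none, and Traf1 with PBS rested on 12 embryonic counts.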
